A study of Mus musculus with 4 samples.

Results

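Universal fibroblast progenitor markers are genes by which a fibroblast type found in many tissues, usually named after *Pi16* or *Dpp4*, has been described. The 10 genes taken here were *Pi16*, *Dpp4*, *Cd34*, *Ly6a*, *Ly6c1*, *Clec3b*, *Pcolce2*, *Gpc3*, *Ackr3* and *Mfap5*, of 33696 genes counted. They were set as a list of names, with no threshold on their values, and were measured in 21791 fibroblasts kept out of 24489 deposited cell barcodes. A kept cell had 500 to 6000 genes, at most 10% mitochondrial transcripts, and 0 unique transcript counts (UMIs) of *Ptprc*, which marks haematopoietic cells, and of *Pax3*, which marks the melanoma cells.

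The cells came from tumors of B16-F1-OVA, a mouse melanoma line that carries ovalbumin, grown in the peritoneum of C57Bl/6 mice for 14 days after 400000 cells had been given. All hosts were Cxcl13-cre-tdTomato X R26R-eGFPflox animals, in which the *Cxcl13* promoter drives tdTomato and cre, and in which eGFP stays on once cre has been active. Tumor cells in suspension had been enriched for podoplanin on magnetic beads and sorted as CD45neg CD31neg podoplaninhi, so all 4 libraries share the genotype, the tumor, the day and the podoplanin gate. The libraries, 1 for each population, were tdTomatoneg eGFPneg (10397 kept fibroblasts, 76554023 UMIs), tdTomatoneg eGFP+ (5827 cells, 56043192 UMIs), tdTomato+ eGFPneg (4692 cells, 46132870 UMIs) and tdTomato+ eGFP+ (875 cells, 8688683 UMIs). The sources used here do not give the number, age or sex of the mice behind each library, and transcripts of Xist and of Y-linked genes were found in different cells of every library.

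Pi16+ and Dpp4+ fibroblasts lie in the adventitia around vessels and in the fascia and the linings of body cavities, and lineage work in several tissues has placed them upstream of more specialised fibroblasts. Surface proteins of the list, among them *Dpp4*, *Cd34* and the Ly6 protein Sca-1 that *Ly6a* encodes, are commonly used to sort them. Mesothelial cells, the epithelium-like cells that line the peritoneum, sit next to such fibroblasts and are marked by *Msln* and *Upk3b*.

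The promoters of *Pi16*, *Dpp4* and *Pcolce2*, the members whose levels differed most between populations, are shown as the sequence context of these genes. Each is the run from 250 bases before to 50 bases after the RefSeq start on GRCm38.p6, which is not the build of the counts, read 5′ to 3′ on the gene's strand. Capitals mark the letters CCAAT (the CCAAT box), the E-box letters CAGCTG and the TATA box letters TATAAA, which were searched on both strands together with the AP-1 letters TGANTCA. The windows are chr17:29318632-29318931 on the plus strand for *Pi16*, chr2:62412182-62412481 on the minus strand for *Dpp4*, and chr9:95637378-95637677 on the plus strand for *Pcolce2*.
Pi16: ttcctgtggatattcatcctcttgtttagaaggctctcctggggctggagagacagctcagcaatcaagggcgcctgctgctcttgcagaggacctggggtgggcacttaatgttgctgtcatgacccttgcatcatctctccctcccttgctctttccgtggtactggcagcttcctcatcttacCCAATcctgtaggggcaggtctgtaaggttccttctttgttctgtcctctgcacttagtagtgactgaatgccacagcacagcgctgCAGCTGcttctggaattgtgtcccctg
Dpp4: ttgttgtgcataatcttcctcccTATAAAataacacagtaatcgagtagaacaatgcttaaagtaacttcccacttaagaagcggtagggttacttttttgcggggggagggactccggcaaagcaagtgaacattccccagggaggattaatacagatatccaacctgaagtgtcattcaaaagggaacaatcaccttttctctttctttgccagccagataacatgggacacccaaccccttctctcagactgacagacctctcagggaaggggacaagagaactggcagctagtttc
Pcolce2: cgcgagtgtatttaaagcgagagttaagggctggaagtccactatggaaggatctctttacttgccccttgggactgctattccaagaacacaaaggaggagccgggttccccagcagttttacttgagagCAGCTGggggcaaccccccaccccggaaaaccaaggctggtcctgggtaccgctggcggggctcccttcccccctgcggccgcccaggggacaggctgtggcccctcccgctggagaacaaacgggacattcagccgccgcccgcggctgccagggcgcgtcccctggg

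RefSeq promoters were matched for 7 of the 10 members. The *Pi16* window held the CCAAT box at base -64 and the E-box at base +23 from the start, the *Pcolce2* window held the E-box at base -119, and the *Dpp4* window held the TATA box at base -227. Of 32544 distinct promoter windows of the same length, 37.4% held the CCAAT box, 16.4% the E-box, 13.6% the TATA box and 7.79% the AP-1 letters. The letters are a description of these windows and not of binding.

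All 10 members were detected in every library, and each had its highest level in the tdTomatoneg eGFPneg fibroblasts. Levels are UMIs summed over the kept cells per 1000000 UMIs (CPM), with exact 95% Poisson intervals that cover counting error only. With 1 library for each population there was no test across samples, so a difference between populations cannot be set against the spread between animals or preparations. CPM of different genes were not compared.

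*Pi16*, which encodes a peptidase inhibitor family protein and gives the cell type its usual name, measured 127 CPM (124 to 129) in the tdTomatoneg eGFPneg cells, 23.8 CPM (22.4 to 25.2) in the tdTomato+ eGFPneg cells, 7.74 CPM (7.03 to 8.51) in the tdTomatoneg eGFP+ cells and 6.79 CPM (5.17 to 8.76) in the tdTomato+ eGFP+ cells. The last pair had overlapping intervals, and the highest level was 18.7 times the lowest. *Pcolce2*, an enhancer of the protease that trims procollagen, showed nearly the same order, with 67.5 CPM (65.7 to 69.4) in the tdTomatoneg eGFPneg cells against 13.3 CPM (12.2 to 14.4), 7.57 CPM (6.86 to 8.32) and 10.1 CPM (8.12 to 12.5) in the tdTomato+ eGFPneg, tdTomatoneg eGFP+ and tdTomato+ eGFP+ cells. Its level in the tdTomato+ eGFP+ cells overlapped both neighbours.

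*Clec3b*, which encodes the plasminogen-binding lectin tetranectin, was at 386 CPM in the tdTomatoneg eGFPneg cells and at 109, 99.9 and 78.5 CPM in the tdTomatoneg eGFP+, tdTomato+ eGFPneg and tdTomato+ eGFP+ cells, with no overlap between neighbours. *Mfap5*, a component of elastic microfibrils, was at 785 CPM in the tdTomatoneg eGFPneg cells, 301 CPM in the tdTomato+ eGFPneg cells, 275 CPM in the tdTomato+ eGFP+ cells and 233 CPM in the tdTomatoneg eGFP+ cells, again without overlap. Like the surface members below, all 4 members grouped here as secreted or matrix had a level in the tdTomatoneg eGFPneg library that stood clear of the other 3.

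Among the 6 surface members the highest population was 1.36 to 9.02 times the lowest. It was 3.37 to 8.92 times for the secreted or matrix members other than *Pi16*, so these ranges overlapped. *Pi16*, grouped with the latter here, was at 18.7 times. *Dpp4*, a dipeptidyl peptidase of the cell surface, measured 34.6 CPM (33.3 to 36.0) in the tdTomatoneg eGFPneg cells and 17.2 CPM (16.1 to 18.3) in the tdTomatoneg eGFP+ cells. Both tdTomato+ populations were lower, at 4.60 CPM (3.29 to 6.27) with eGFP and 3.84 CPM (3.29 to 4.45) without it, and their intervals overlapped. *Dpp4* therefore did not follow the order of *Pi16*, which was higher in tdTomato+ eGFPneg than in tdTomatoneg eGFP+ cells. *Gpc3*, a glypican that carries heparan sulfate, was at 66.7, 29.8, 21.1 and 8.63 CPM in the tdTomatoneg eGFPneg, tdTomatoneg eGFP+, tdTomato+ eGFPneg and tdTomato+ eGFP+ cells, without overlap.

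*Ly6c1*, a lipid-anchored surface protein of the Ly6 family, was at 267 CPM in the tdTomatoneg eGFPneg cells and at 129, 110 and 93.8 CPM in the tdTomato+ eGFPneg, tdTomato+ eGFP+ and tdTomatoneg eGFP+ cells. The other 3 surface members differed by less than 2-fold between the highest and the lowest population. *Ackr3*, a scavenging receptor for *Cxcl12*, ranged from 55.5 to 109 CPM, *Cd34*, a sialomucin of progenitors and endothelium, from 74.6 to 120 CPM, and *Ly6a* from 1658 to 2255 CPM. *Ly6a* was lowest in the tdTomatoneg eGFP+ cells, and the tdTomato+ populations overlapped at 1904 and 1874 CPM. *Ly6c1* shared 15.1% of the 50-base windows at its transcript ends with *Ly6c2* and 6.24% with *Ly6a*, so reads from those stretches may not tell these genes apart. *Ly6c2* itself stayed between 0.222 and 1.50 CPM.

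**Figure D1:**
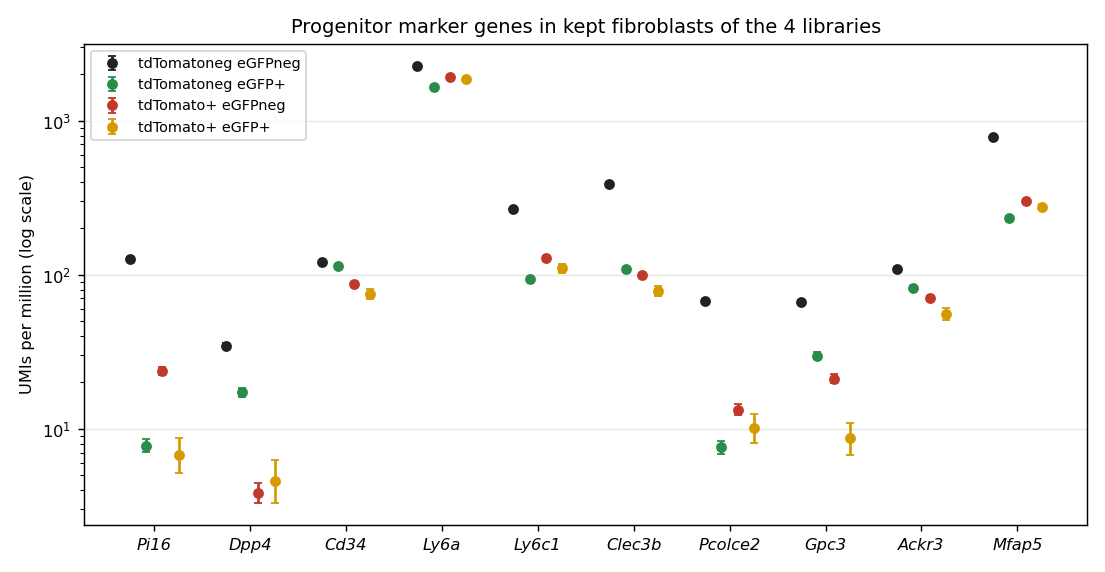
Level of each member in the kept fibroblasts of the 4 libraries, in UMIs per 1000000 on a log axis, with exact 95% Poisson intervals as bars. For every gene the tdTomatoneg eGFPneg point is the highest, from 1.36 times the lowest for *Ly6a* to 18.7 times for *Pi16*, and levels are to be read within a gene.

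Set against the tdTomatoneg eGFPneg library, 7 of the 10 members were at least 2-fold lower in each other population, and none was at least 2-fold higher (1.09, 2.93 and 2.03% of all genes tested in the tdTomatoneg eGFP+, tdTomato+ eGFPneg and tdTomato+ eGFP+ cells). The same 7 genes, *Pi16*, *Dpp4*, *Ly6c1*, *Clec3b*, *Pcolce2*, *Gpc3* and *Mfap5*, made up each count. Of all genes with at least 100 UMIs over both libraries, 4.96% were at least 2-fold lower in the tdTomatoneg eGFP+ cells, 4.66% in the tdTomato+ eGFPneg cells and 6.33% in the tdTomato+ eGFP+ cells. The median log2 ratio of the members was -1.34, -1.52 and -1.91 in these populations, beside 0.0869, 0.0742 and -0.0408 over all genes tested. These 3 comparisons share the tdTomatoneg eGFPneg library, so their values stand side by side and are not independent.

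In log2 ratios to the tdTomatoneg eGFPneg cells, *Pi16* was at -4.03 (95% interval -4.18 to -3.89) in the tdTomatoneg eGFP+ cells, -2.41 (-2.51 to -2.32) in the tdTomato+ eGFPneg cells and -4.22 (-4.62 to -3.85) in the tdTomato+ eGFP+ cells. *Dpp4* was at -1.01 (-1.12 to -0.90), close to the 2-fold limit, and at -3.17 (-3.40 to -2.95) and -2.91 (-3.40 to -2.46). Both genes that name the cell type were thus low in the populations with a tdTomato or eGFP signal, *Pi16* most where eGFP was present and *Dpp4* most where tdTomato was present. *Cd34* differed least in the tdTomatoneg eGFP+ cells, at -0.07 (-0.12 to -0.03). Of the members that stayed inside 2-fold, *Ackr3* in the tdTomato+ eGFP+ cells lay nearest to the limit, at -0.98 (-1.11 to -0.85).

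Genes described beside *Pi16* and *Dpp4* in such fibroblasts were lower in part. Of a companion list of 16, 6 were at least 2-fold lower in the tdTomatoneg eGFP+ cells, 7 in the tdTomato+ eGFPneg cells and 8 in the tdTomato+ eGFP+ cells, beside 4.96, 4.66 and 6.33% of all genes tested, with none higher. *Col14a1*, a collagen associated with fibrils, was at 162 CPM in the tdTomatoneg eGFPneg cells and between 21.9 and 52.8 CPM in the other populations, and *Ogn*, a small proteoglycan of the matrix, was at 230 CPM against 27.5 to 49.3 CPM. *Igfbp6*, a binding protein of insulin-like growth factors, ranged only from 719 to 1004 CPM. Of the relatives of the members, *Mfap2*, another microfibril protein, was at 97.5 CPM in the tdTomatoneg eGFPneg cells and 18.6 to 41.1 CPM elsewhere, while *Cxcl12*, the ligand that *Ackr3* takes up, was at 527, 174, 608 and 527 CPM in the tdTomatoneg eGFPneg, tdTomatoneg eGFP+, tdTomato+ eGFPneg and tdTomato+ eGFP+ cells. None of 6 cell cycle and none of 6 stress genes passed 2-fold in any of the 3 comparisons.

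The cells were set beside marker lists. At least 2 of 6 fibroblast markers were found in 97.8 to 99.2% of the kept cells of each library. Without thinning, the marker *Col1a1* was also found in 72.3% of cells with melanoma genes in the tdTomatoneg eGFPneg library. It was found in 95.8% of the kept cells there with *Msln* and *Upk3b* UMIs. Detection of these markers thus does not separate fibroblasts from such cells. Melanoma genes moved with the population comparison: the list summed to 326 CPM in the tdTomatoneg eGFPneg cells and to 71.0, 31.5 and 20.7 CPM in the tdTomatoneg eGFP+, tdTomato+ eGFPneg and tdTomato+ eGFP+ cells, with 6 of its 7 genes detected and *Pax3* at 0 through the filter. With a stricter removal of melanoma and immune cells, all 44 member ratios past 2-fold, in the population and mesothelial-gene comparisons, kept their side. That removal dropped whole cells with at least 2 genes of either list and could not take melanoma RNA out of the remaining cells. The part of melanoma RNA in the population comparison was therefore not tested. Immune genes summed to 19.0 to 35.5 CPM, endothelial genes to 5.75 to 13.0 CPM and pericyte genes to 8.03 to 11.9 CPM. The libraries shared between 2 and 15 cell barcodes in each pair. Cells of the tdTomatoneg eGFPneg library were shallower, with a median of 5443 UMIs against 8296 to 9042 elsewhere, and shares of cells were therefore read at an equal depth, by drawing 1000 UMIs from every cell (thinning).

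After thinning, 21176 cells remained, and 615 shallower cells were left out, 423, 128, 50 and 14 in the tdTomatoneg eGFPneg, tdTomatoneg eGFP+, tdTomato+ eGFPneg and tdTomato+ eGFP+ libraries. *Pi16* was found in 13.5% (exact 95% interval 12.9 to 14.2%) of the thinned tdTomatoneg eGFPneg cells, 1.04% (0.789 to 1.33%) of the tdTomatoneg eGFP+ cells, 2.46% (2.03 to 2.94%) of the tdTomato+ eGFPneg cells and 0.348% (0.0719 to 1.01%) of the tdTomato+ eGFP+ cells. Without thinning the shares were 27.0, 3.14, 6.82 and 2.74%. Cells with melanoma genes, which should lack *Pi16* and whose median depth was 20183 UMIs in the tdTomatoneg eGFPneg library, gave 1.08% (0.224 to 3.13%) there after thinning, and 0 of 90 such cells, with an interval up to 4.02%, in the tdTomatoneg eGFP+ library. The *Pi16* share of the tdTomatoneg eGFPneg fibroblasts stood above this background. That of the tdTomatoneg eGFP+ fibroblasts lay inside the wide interval from 90 cells, so the share alone does not separate it from the background. Joint detection of *Pi16* with other members in that library is given below.

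*Dpp4* was found in 5.06% of the thinned tdTomatoneg eGFPneg cells and in 2.04, 0.539 and 0.929% of the tdTomatoneg eGFP+, tdTomato+ eGFPneg and tdTomato+ eGFP+ cells, beside 0.361% (0.00914 to 1.99%) of the melanoma-gene cells in the first of these libraries. *Ly6a* was the member found most often, in 61.7 to 76.5% of thinned cells, with 18.4% in the melanoma-gene cells of the tdTomatoneg eGFPneg library. For all 10 members the share there was above the upper end of the melanoma-gene interval. The melanoma-gene cells had been deeper than the fibroblasts before thinning, so the background they give, for *Pi16* as well, may be too low. This was not tested. *Ly6a* was found in 63.9% of the tdTomato+ eGFP+ cells, and of the other members *Mfap5*, *Cd34*, *Ly6c1*, *Clec3b* and *Ackr3* were found in 4.99 to 16.6% of them. *Dpp4*, *Pcolce2*, *Gpc3* and *Pi16* were each found in fewer than 10 of these 861 cells.

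The next question was whether the members were found in the same cells. Among 45 pairs, the number of thinned cells with both genes was compared with the product of the separate shares, and a pair was read in a library where that product came to at least 5 cells. A pair was counted as above or below the product where the exact 95% Poisson interval of the joint count lay wholly on that side. In the tdTomatoneg eGFPneg library all 45 pairs were above the product, with a median ratio of 1.90. In the tdTomatoneg eGFP+ library 32 of 37 read pairs were above it (median 2.01), in the tdTomato+ eGFPneg library 26 of 33 (1.95), and in the small tdTomato+ eGFP+ library 3 of 12 (1.19). No pair was counted as below the product, although 3 pairs of the tdTomato+ eGFP+ library had ratios from 0.696 to 0.840 with intervals that included 1. Of the pairs, 24 of the 38 read in at least 2 libraries were counted as above in each library read. Among cells with UMIs of both *Msln* and *Upk3b* this held for 4 of 27 pairs, and among cells with neither gene for 21 of 32. In the tdTomatoneg eGFPneg library 13 of 34 read pairs were above in the former (median ratio 1.29) and 45 of 45 in the latter (1.89). The former class holds fewer cells, and the part of cell number in this difference was not tested.

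*Pi16* and *Dpp4* were read together only in the tdTomatoneg eGFPneg library, where 220 cells held both against 68.4 from the product, a ratio of 3.22 (2.81 to 3.67). There, 43.6% of the cells with *Dpp4* also held *Pi16*, against 11.9% of the cells without *Dpp4*. *Pi16* and *Pcolce2* had the highest ratio of that library, at 3.73 (3.41 to 4.08), with 499 cells. *Pi16* was also joined with *Clec3b*, at ratios from 2.51 to 6.85 over 3 libraries, and with *Ly6c1*, at 2.71 to 6.23. In the tdTomatoneg eGFP+ library, where *Pi16* was found in 59 thinned cells in all, 40 of these held *Clec3b* and 32 held *Ly6c1*, against products of 5.84 and 5.13 cells.

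*Clec3b* and *Ly6c1* had the most partners, each with 8 of the 9 other members above the product in all libraries read. *Pi16* had 6, *Gpc3* and *Ackr3* had 5, *Cd34* had 4, and *Dpp4*, *Ly6a*, *Pcolce2* and *Mfap5* had 3. These counts depend on the reading rule and do not rank the members. Pairs among *Pi16*, *Dpp4*, *Pcolce2* and *Gpc3* were read in 1 library and so were not counted. *Mfap5* with *Cd34*, *Ly6a*, *Ly6c1*, *Clec3b* or *Ackr3* was above the product in 3 of 4 libraries read. In the tdTomatoneg eGFPneg library all 45 pairs were above it. Of the 12 pairs read in all 4 libraries, 3 were above the product in each: *Cd34* with *Ly6c1* (ratios 1.43 to 2.01), *Ly6a* with *Ly6c1* (1.24 to 1.52), and *Ly6a* with *Clec3b* (1.22 to 1.47). The ratio of *Ly6a* pairs is bounded from above by its high share of cells. The part of shared sequence in the pair of *Ly6a* with *Ly6c1* was not tested.

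**Figure D2:**
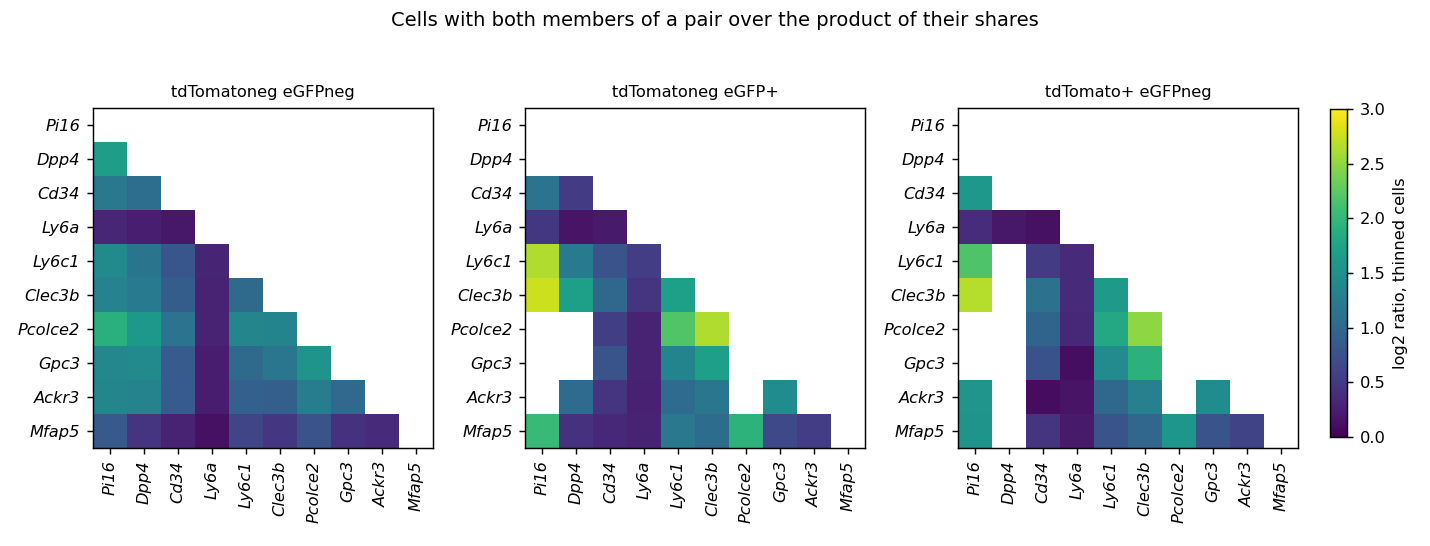
Cells with both members of a pair over the product of their separate shares, as a log2 ratio, in thinned cells of 3 libraries, with pairs whose product was under 5 cells left blank. The ratio of every read pair lies above 0 on the log2 scale in these panels, also where its interval includes 0, and *Pi16* with *Clec3b* in the tdTomatoneg eGFP+ library is the highest, at a ratio of 6.85.

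Counted per cell, at least 3 members were found in 35.2% (34.3 to 36.1%) of the thinned tdTomatoneg eGFPneg fibroblasts, 11.1% (10.3 to 11.9%) of the tdTomatoneg eGFP+, 11.4% (10.5 to 12.4%) of the tdTomato+ eGFPneg and 6.62% (5.05 to 8.49%) of the tdTomato+ eGFP+ fibroblasts. The product of the shares gave 41.0% in the first of these libraries, above the measured share, and 7.29, 8.38 and 4.78% in the others, below it. The ends of the distribution showed the joint detection in each library. At least 5 members were found in 13.5% of the tdTomatoneg eGFPneg cells against 3.65% from the product, in 1.42% against 0.0770% of the tdTomatoneg eGFP+ cells, in 1.96% against 0.0879% of the tdTomato+ eGFPneg cells, and in 0.697% (6 cells) against 0.0238% of the tdTomato+ eGFP+ cells. Cells with none of the 10 made up 13.0, 28.1, 22.0 and 27.2%, against products of 4.01, 20.7, 15.8 and 22.0%.

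**Figure D3:**
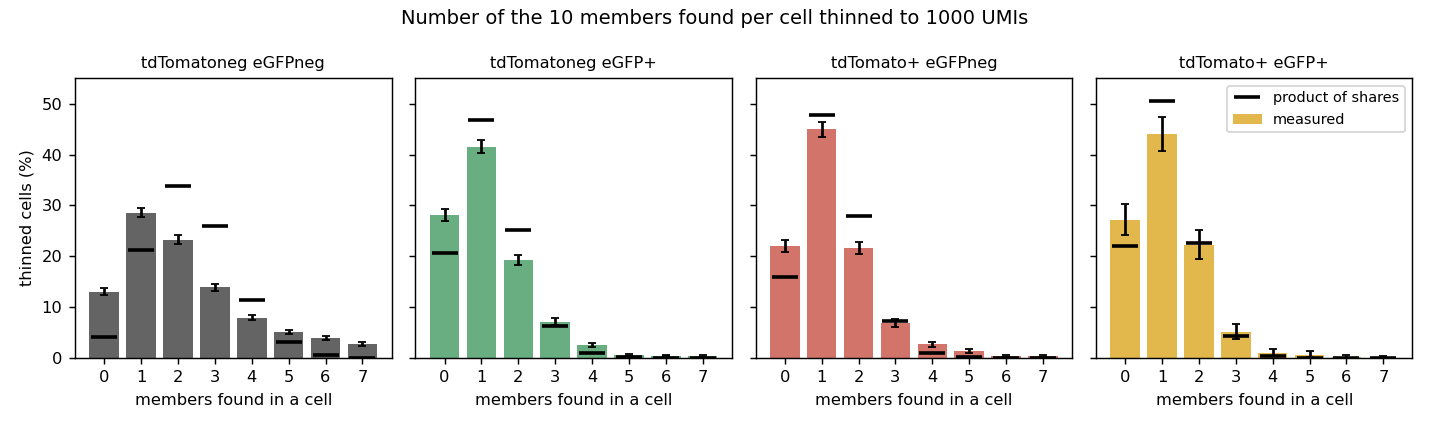
Share of thinned cells, in percent, with 0 to 7 of the 10 members found, as bars with exact 95% Clopper-Pearson intervals, and the share that the product of the separate shares gives, as dashes. Cells with 5, 6 or 7 members exceed the dashes in the tdTomatoneg eGFPneg library, as do cells with none in all 4 libraries.

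Cells with at least 3 members were described against cells with none of them, genes outside the list being the measure. In the tdTomatoneg eGFPneg library 13 of the 16 companion genes were at least 2-fold higher in the former (8.67% of all genes tested), and in the tdTomatoneg eGFP+, tdTomato+ eGFPneg and tdTomato+ eGFP+ libraries 8 of 14, 6 of 13 and 7 of 11 tested (3.24, 3.02 and 3.47%). None was at least 2-fold lower, beside 3.86, 3.81, 2.93 and 4.92% of all genes tested in the same order. *Sema3c*, a secreted guidance protein, with *Col14a1*, *Tnxb* and *Dpt*, all 3 of the matrix, was in each of these counts. Melanoma genes were lower in cells with at least 3 members, at 5 of 5, 4 of 4 and 3 of 3 tested genes in the first 3 libraries. The cells with at least 3 members were also shallower in the tdTomatoneg eGFPneg library, with a median of 3731 UMIs against 7374 before thinning. Mesothelial-gene cells, those with UMIs of both *Msln* and *Upk3b*, made up 11.6, 43.5, 5.09 and 26.3% of the cells with at least 3 members in the tdTomatoneg eGFPneg, tdTomatoneg eGFP+, tdTomato+ eGFPneg and tdTomato+ eGFP+ libraries, and 15.8, 14.1, 1.47 and 2.14% of the cells with none. *Sema3c* was itself higher in mesothelial-gene cells. The part of melanoma RNA, of depth and of mesothelial-gene cells in these differences was not tested.

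The genes whose thinned counts followed the number of members per cell most closely, by the lowest of the 4 within-library Pearson r over 7015 genes outside the list, were *Dcn* (r from 0.224 to 0.562), *Gsn* (0.203 to 0.666), *Plac9* (0.200 to 0.470), *Ifi27l2a*, *Serping1*, *AW112010*, *Ogn* (0.154 to 0.568), *Efemp1* (0.152 to 0.522), *S100a16* and *Ifitm2*. *Dcn* and *Ogn* encode small proteoglycans, and *Gsn* encodes gelsolin, which severs actin filaments. *Malat1*, a nuclear RNA, lay at the other end (-0.220 to -0.127), followed by *Adamts9*, *Cdh2*, *Neat1* and *Col24a1*. These r are over the 861 to 9974 thinned cells of a library, which share that library, and describe order only.

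Fibroblasts with mesothelial genes were examined next, since the tumors grew in the peritoneum. Cells with at least 1 UMI of *Msln* and 1 of *Upk3b*, called mesothelial-gene cells here, numbered 1671, 1311, 109 and 46 in the tdTomatoneg eGFPneg, tdTomatoneg eGFP+, tdTomato+ eGFPneg and tdTomato+ eGFP+ libraries, or 16.1, 22.5, 2.32 and 5.26% of kept cells. They were set against the 6982, 2811, 4014 and 689 cells with neither gene. The class takes deeper cells, with medians of 9202 and 4321 UMIs in the first library, and all members were therefore compared as CPM.

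*Pi16* and *Pcolce2* were low in the mesothelial-gene cells, with an exception in the smallest library. In the tdTomatoneg eGFPneg library *Pi16* was at 25.7 CPM (23.5 to 28.2) in mesothelial-gene cells and 201 CPM (196 to 205) in cells with neither gene, a log2 ratio of -2.96 (-3.10 to -2.83). In the tdTomatoneg eGFP+ library it was at 2.72 against 14.8 CPM (-2.45, interval -2.94 to -1.99), and in the tdTomato+ eGFPneg library 3 UMIs gave 2.32 against 27.2 CPM (-3.55, interval -5.83 to -2.00). In the tdTomato+ eGFP+ library the order was the opposite, at 19.5 CPM from 12 UMIs in 46 cells against 7.10 CPM, under the 100 UMIs set for a call. Among thinned cells *Pi16* was found in 2.34% of mesothelial-gene cells and 19.1% of cells with neither gene in the tdTomatoneg eGFPneg library, the former inside the interval of the melanoma-gene cells.

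*Pcolce2* had 13.3 CPM (11.6 to 15.0) in the mesothelial-gene cells and 107 CPM (104 to 110) in the cells with neither gene of the tdTomatoneg eGFPneg library, a log2 ratio of -3.01 (-3.20 to -2.82). The corresponding levels in the tdTomatoneg eGFP+ library were 1.14 and 16.6 CPM (-3.86, interval -4.63 to -3.18). No *Pcolce2* UMI was counted in the mesothelial-gene cells of either tdTomato+ library, against 15.5 and 13.4 CPM in cells with neither gene, so its level there was at least 6.69-fold lower in the tdTomato+ eGFPneg library and at least 2.75-fold lower in the tdTomato+ eGFP+ library, with 3 UMIs per class as the floor. Its level was thus at least 2-fold lower within every library, the last resting on 87 UMIs and so under the 100 UMIs set for a call.

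*Dpp4* went the other way. It was at 52.4 CPM (49.1 to 55.8) in the mesothelial-gene cells and 30.7 CPM (29.1 to 32.4) in the cells with neither gene of the tdTomatoneg eGFPneg library (log2 ratio 0.77). The difference was larger where the cells with neither gene held little of it, at 40.1 against 4.58 CPM in the tdTomatoneg eGFP+ library (3.13, interval 2.83 to 3.44), 22.4 against 2.38 CPM in the tdTomato+ eGFPneg library (3.23, interval 2.58 to 3.85) and 35.8 against 0.772 CPM in the tdTomato+ eGFP+ library, where it rested on 22 and 5 UMIs. In mesothelial-gene cells of the 4 libraries *Dpp4* thus ranged from 22.4 to 52.4 CPM, and in cells with neither gene from 0.772 to 30.7 CPM. The cells with *Pi16* and those with *Dpp4* overlapped among cells with neither gene of the tdTomatoneg eGFPneg library, at 3.18 times the product. Among its mesothelial-gene cells the pair could not be read, with a product of 2.23 cells.

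*Cd34* was also higher in the mesothelial-gene cells of all 4 libraries, and *Clec3b* in those of 3. *Cd34* was at 151 against 109 CPM in the tdTomatoneg eGFPneg library and at 170 against 65.1, 212 against 73.3 and 220 against 49.4 CPM in the tdTomatoneg eGFP+, tdTomato+ eGFPneg and tdTomato+ eGFP+ libraries. *Clec3b* was lower in the mesothelial-gene cells of the tdTomatoneg eGFPneg library, at 290 against 505 CPM, and higher in those of the others, at 203 against 73.1, 253 against 93.9 and 360 against 46.9 CPM. *Ly6c1* and *Mfap5* were at least 2-fold lower only in the tdTomatoneg eGFPneg library, at 140 against 375 CPM and 294 against 1153 CPM. *Mfap5* in mesothelial-gene cells ranged from 189 to 306 CPM over the libraries, against 293 to 1153 CPM in cells with neither gene. *Ackr3* was at 121 to 134 CPM in the mesothelial-gene cells over the libraries. This was at least 2-fold higher than in cells with neither gene in the tdTomatoneg eGFP+ and tdTomato+ eGFP+ libraries.

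In counts, 0 members were at least 2-fold higher and 4 lower in the mesothelial-gene cells of the tdTomatoneg eGFPneg library (5.95 and 9.27% of all genes tested), 4 higher and 2 lower in the tdTomatoneg eGFP+ library (3.35 and 5.53%), 3 and 2 in the tdTomato+ eGFPneg library (4.05 and 8%), and 5 and 0 of 6 tested in the tdTomato+ eGFP+ library (3.84 and 11%). The median log2 ratio of the members was -0.68, 0.70, 0.64 and 1.32, beside 0.00119, 0.0742, 0.0302 and 0.0141 over all genes tested. The companion genes divided in the same classes: *Sema3c* and *Igfbp6* were at least 2-fold higher in the mesothelial-gene cells of all 4 libraries, and *Il33*, *Col14a1* and *Dpt* at least 2-fold lower. Of 9 tested genes of activated fibroblasts, such as *Postn* and *Tagln*, 8 were lower in each library.

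**Figure D4:**
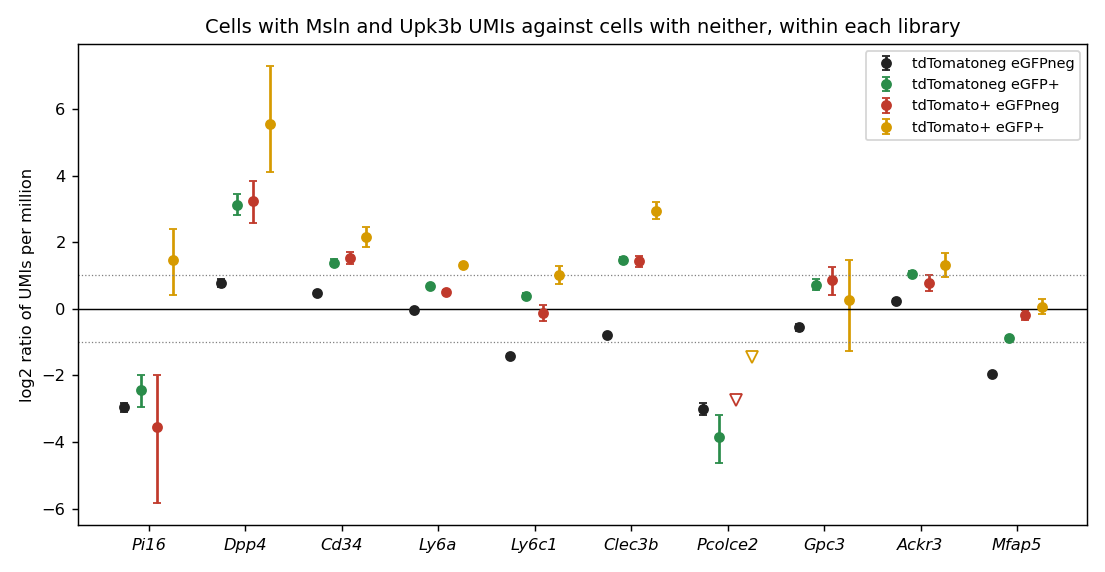
Log2 ratio of CPM in cells with *Msln* and *Upk3b* UMIs over cells with neither, for each member within each library, with exact 95% conditional binomial intervals. Open triangles are *Pcolce2* at 0 UMIs set at the floor of 3, and dotted lines mark 2-fold. *Dpp4* and *Cd34* lie above 0 and *Pcolce2* below 0 in all 4 libraries, and *Pi16* lies below 0 in 3.

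The mesothelial-gene class bore on the comparison of populations. Among cells with neither gene, 7, 7 and 9 members were at least 2-fold lower in the tdTomatoneg eGFP+, tdTomato+ eGFPneg and tdTomato+ eGFP+ cells than in the tdTomatoneg eGFPneg cells (4.78, 4.42 and 6.11% of all genes tested). Among mesothelial-gene cells only 2, 3 and 2 were (1.93, 2.93 and 8.43%). *Pcolce2* was in each of the latter counts, with *Pi16* in the first, *Pi16* and *Dpp4* in the second, and *Gpc3* in the third. In the mesothelial-gene cells of both tdTomato+ libraries *Pcolce2* was at 0 UMIs and set at the floor of 3 UMIs. *Pi16* rested on 3 UMIs in those of the tdTomato+ eGFPneg library. More members thus passed 2-fold among the cells without *Msln* and *Upk3b* UMIs than among the mesothelial-gene cells.

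Transcripts of Xist and of Y-linked genes marked separate cells in each library. Cells with Xist and no UMI of 4 Y-linked genes (Xist-only) numbered 2624, 1345, 2010 and 360 in the tdTomatoneg eGFPneg, tdTomatoneg eGFP+, tdTomato+ eGFPneg and tdTomato+ eGFP+ libraries, and cells with the reverse (Y-only) 1973, 1733, 1037 and 198. Sex, mouse and tumor cannot be told apart here, since nothing ties cells to animals. In the tdTomatoneg eGFPneg library 7 members were at least 2-fold higher in the Xist-only cells, against 3.42% of all genes tested. *Pi16* was at 175 CPM in the Xist-only and 44.5 CPM in the Y-only cells (log2 ratio 1.97, interval 1.87 to 2.08), and *Clec3b* had a log2 ratio of 2.14 (2.08 to 2.21).

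*Clec3b* was at least 2-fold higher in the Xist-only cells of all 4 libraries, with log2 ratios of 2.14, 2.46, 1.14 and 2.46 in the tdTomatoneg eGFPneg, tdTomatoneg eGFP+, tdTomato+ eGFPneg and tdTomato+ eGFP+ libraries. *Ly6a* was also higher in each, at 1.16, 1.26, 0.82 and 0.89, as were *Ly6c1*, at 1.38, 1.73, 0.74 and 0.33, and *Ackr3*, at 0.97, 0.71, 0.78 and 0.82. *Pi16* was higher too, with an interval that included 0 in the tdTomato+ eGFP+ library. *Mfap5* went against these, at -0.34, 0.01, -1.06 and -0.59, and *Dpp4*, *Cd34*, *Pcolce2* and *Gpc3* differed in direction between libraries. The members thus did not all move together between these cells. Among cells with neither *Msln* nor *Upk3b*, *Clec3b* was at 1.75, 1.93, 0.82 and 1.50, under 2-fold in the tdTomato+ eGFPneg library, *Ly6a* at 0.98, 0.98, 0.76 and 0.57, and *Mfap5* lower throughout, at -0.89, -0.99, -1.40 and -1.23. In these cells *Ackr3* stayed higher in each library, and *Ly6c1* was at -0.42 in the tdTomato+ eGFP+ library. Among all kept cells of the tdTomatoneg eGFP+, tdTomato+ eGFPneg and tdTomato+ eGFP+ libraries, 4, 1 and 1 members were at least 2-fold higher in the Xist-only cells (1.63, 0.872 and 1.22% of all genes tested). In the last, 6 members were tested.

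**Figure D5:**
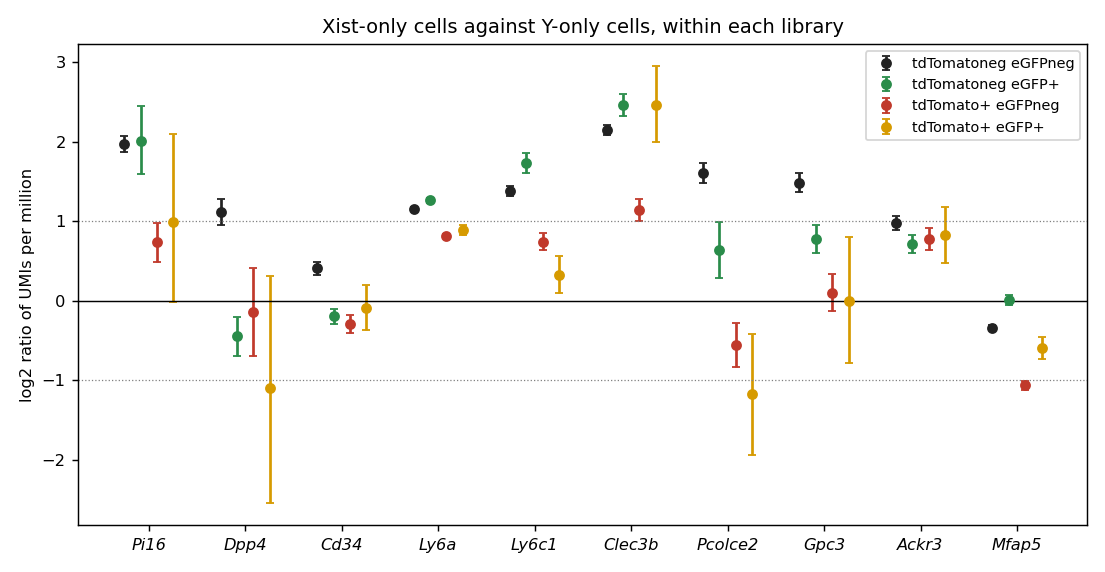
Log2 ratio of CPM in Xist-only over Y-only cells for each member within each library, with exact 95% conditional binomial intervals and dotted lines at 2-fold. *Clec3b*, *Ly6a*, *Ly6c1*, *Ackr3* and *Pi16* lie above 0 in all 4 libraries, the last with an interval that includes 0 in tdTomato+ eGFP+, and *Mfap5* lies below 0 in 3.

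The comparison of populations was repeated within each kind of cell. Among Xist-only cells 7, 7 and 8 members were at least 2-fold lower in the tdTomatoneg eGFP+, tdTomato+ eGFPneg and tdTomato+ eGFP+ cells (4.75, 4.51 and 6.01% of all genes tested). Among Y-only cells 5, 4 and 6 were (2.65, 1.76 and 3.46%). *Pi16*, *Clec3b* and *Mfap5* were in all 6 counts. Xist-only cells made up 77.9% of the cells with 1 kind of mark that held at least 3 members in the tdTomatoneg eGFPneg library, and 25.9% of those that held none. Of all kept cells with 1 kind of mark there, 57.1% were Xist-only. The median was 6739.5 UMIs in the Xist-only and 10017 in the Y-only cells, and the part of depth in these shares was not tested. The higher *Dpp4* of mesothelial-gene cells in that library was found among the Y-only cells (log2 ratio 2.64, interval 2.27 to 3.02) and not beyond counting error among the Xist-only cells (0.15, interval -0.07 to 0.36), whereas *Pi16* was lower in both, at -2.15 and -2.88.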

How the data were processed

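The authors had made gene by cell matrices of UMI counts from 4 droplet single-cell libraries, and these deposited counts were used as they stood. The file headers name Cell Ranger 8.0.0, and the submitters' processing notes name Cell Ranger 10.0.0, STAR, Seurat 5.0 and GRCm39. Kept cells had 500 to 6000 genes, at most 10% mitochondrial UMIs and 0 UMIs of *Ptprc* and *Pax3*. Doublets were not removed in the main values. As an alternative, the expected number (0.8% of barcodes per 1000) was removed by Scrublet score, 954, 281, 188 and 5 cells. UMIs were summed by library and cell class, since cells are not replicates. Log2 ratios carry exact conditional binomial 95% intervals, shares Clopper-Pearson intervals, and both cover counting error only. A gene was called past 2-fold if both groups held at least 100 UMIs in sum, and a group at 0 was set at 3 UMIs. Thinning drew 1000 UMIs per cell without replacement.

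All 10 members were named in every library, with the relatives, companion, activated fibroblast, cell cycle, stress and marker lists by count. The likeness rule named the 10 genes with the highest and the 5 with the lowest r, over genes found in at least 1% of thinned cells of every library. The members and lists were chosen with earlier results of these data known. Python 3.11.15, scipy 1.17.1 and scanpy 1.11.5 were used, and the counting scripts were tested on simulated data. Windows shared between transcript ends were taken from the last 500 bases of the transcripts. The alternatives were other limits on cells, doublet removal, a mean over cells, each kind of sex mark, other mesothelial-gene classes, another thinning depth and seed and, chosen after seeing the data, the analysis without 1 library.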

Additional observations from a re-analysis of the deposited data

Results flagged for a closer look

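Several member ratios had opposite directions in 2 libraries with both intervals off 0, and the difference between the libraries was not tested. Between mesothelial-gene cells and cells with neither gene, these were *Pi16* (log2 ratio 1.46 in tdTomato+ eGFP+, from 12 UMIs, and -3.55 in tdTomato+ eGFPneg, from 3), *Ly6a* (1.31 in tdTomato+ eGFP+ and -0.046 in tdTomatoneg eGFPneg), *Ly6c1* (1.02 and -1.42 in the same libraries), *Clec3b* (2.94 and -0.80 in the same libraries) and *Gpc3* (0.86 in tdTomato+ eGFPneg and -0.55 in tdTomatoneg eGFPneg). Between Xist-only and Y-only cells they were *Dpp4* (1.12 in tdTomatoneg eGFPneg and -0.45 in tdTomatoneg eGFP+), *Cd34* (0.41 in tdTomatoneg eGFPneg and -0.29 in tdTomato+ eGFPneg) and *Pcolce2* (1.60 in tdTomatoneg eGFPneg and -1.17 in tdTomato+ eGFP+). Among cells with neither *Msln* nor *Upk3b*, *Dpp4* was at 2.64 and 0.24 (interval of the latter -0.49 to 1.00) and *Cd34* at 0.67 and -0.019 (-0.16 to 0.12) in the same libraries, so neither had opposite directions beyond counting error there, and *Pcolce2* was at 1.26 and -1.48. The mesothelial-gene values of the tdTomato+ eGFP+ library rest on 46 cells.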

How the results depend on the processing

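No paired analysis was possible because each population had 1 library and no result came from a test. Of 44 member ratios past 2-fold, taken without a minimum of UMIs, 44 kept their direction and side with a mitochondrial limit of 5%, 44 with stricter removal of immune and melanoma cells, 44 with expected doublets removed, 43 with no removal of *Ptprc* or *Pax3* cells, 42 in cells with at least 2000 UMIs, 39 in Xist-only cells and 30 in Y-only cells. Of 21 population ratios, 21 were kept in cells with neither mesothelial gene, and 7 in mesothelial-gene cells, where 3 reversed. Of 23 mesothelial-gene ratios, 16 were kept with either gene against none, where 1 reversed. With the class set on thinned counts 18 were kept and 3 reversed. The share of tdTomatoneg eGFPneg cells with at least 3 members was 34.1% with no such removal, 31.1% in cells with at least 2000 UMIs, 45.7% in Xist-only cells, 16.9% in Y-only cells and 48.1% at 2000 UMIs per thinned cell. Of the pairs read in at least 2 libraries, 15 of 27 in Xist-only and 2 of 16 in Y-only cells were above the product in all libraries read. In Y-only cells *Dpp4* with *Mfap5*, read in 1 library, was below the product, at a ratio of 0.368. Pairs above the product numbered 20 without the tdTomatoneg eGFPneg library and 29 without the tdTomato+ eGFP+ library, a choice made after seeing the data.

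Members at least 2-fold lower than in tdTomatoneg eGFPneg cells numbered 4 in tdTomato+ eGFPneg among Y-only cells, and 2, 3 and 2 among mesothelial-gene cells, where *Ly6c1* (0.55), *Clec3b* (0.31) and *Mfap5* (0.055) reversed in the tdTomato+ eGFP+ cells. The count of members at least 2-fold lower in mesothelial-gene cells within every library, taken without a minimum of UMIs, was 1 (*Pcolce2*), and 0 in Xist-only cells, 0 as a mean over cells, where a class at 0 UMIs gives no ratio, 0 with the class set on thinned counts, and 2 without the tdTomato+ eGFP+ library, with *Pi16* added. Reversed ratios of mesothelial-gene cells in the tdTomato+ eGFP+ library were *Pi16* at -0.35 (Xist-only) and -0.27 (either gene), *Pcolce2* at 0.61 (Xist-only) and 2.87 (thinned counts), and *Ly6a* at -0.047 and *Ly6c1* at -1.28 (Y-only). In the tdTomato+ eGFPneg library they were *Pi16* at 0.28 and *Pcolce2* at 1.12 (thinned counts). The *Pcolce2* values stem from the floor, at 0 UMIs in fewer cells. The cause of the others was not tested. Depth limited pairs of *Pi16*, *Dpp4*, *Pcolce2* and *Gpc3*, which were read in 1 library when paired with each other.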
